A study of Homo sapiens with 6 samples.

Results

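HOX genes encode homeodomain transcription factors, and 39 of the 62703 genes in the deposited RNA-seq table carry a HOX symbol made of a cluster letter and a paralogue number. They were chosen by that symbol alone, and every one of the 39 was placed in GENCODE version 44 on the hg38 build. In animals these genes sit in clusters in the order in which they act along the body axis, so that genes of low number pattern the hindbrain and pharyngeal region and genes of high number pattern the trunk, the limbs and the urogenital tract. Polycomb proteins keep clusters silent outside their domain, Trithorax proteins and retinoic acid open them, and PBX and MEIS proteins bind DNA together with HOX proteins. Many carcinoma lines, pancreatic ones included, express parts of these clusters.

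PANC-1 is a human cell line from a ductal carcinoma of the pancreas, and DKK1-SE is a super-enhancer assigned to DKK1, a secreted Wnt inhibitor. The 3 DKK1-SE-/- samples carry a homozygous CRISPR-Cas9 deletion of the component enhancer e1, and the 3 DKK1-SE+/+ samples, labelled WT, are PANC-1 cells without it; both were grown in DMEM with 10% fetal bovine serum. The comparison asks how the transcriptome differs when e1 is absent. The -/- cells are 1 clone and the labels call the 3 samples of each group biological replicates, so the deletion and other properties of the clone cannot be told apart, and p-values reflect the spread between samples of that clone and of the controls.

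Each sample has an expected count per gene, which need not be a whole number, and the authors' TPM, a level corrected for transcript length and scaled to the same total in each library. The +/+ libraries held 21822314, 16475810 and 18803154 counts in replicates 1, 2 and 3, and the -/- libraries held 17359835, 20098086 and 17804764. Values listed for 3 samples are in that order of replicates. Fold changes and their standard errors (SE) come from the edgeR quasi-likelihood test on the counts, with p-values adjusted by the Benjamini-Hochberg method over the 15179 genes that passed a filter on low counts, and a gene is called at an adjusted p under 0.05. Intervals of count ratios and the floors cover counting error only. The interval of a fitted log2 fold change rests on its SE, which includes the spread between samples.

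DKK1, on another chromosome than any HOX cluster, served to check the labels. Its TPM was 229.2, 245.8 and 198.5 in +/+ cells and 66.8, 79.8 and 82.7 in -/- cells. All 3 -/- samples lay below all 3 +/+ samples, with a log2 fold change of -1.45 (SE 0.112, edgeR quasi-likelihood, Benjamini-Hochberg adjusted p = 6.16e-06). In bulk RNA, here and below, fewer cells expressing a gene and less RNA per cell cannot be told apart.

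The line was also compared with markers of its own and of other pancreatic cell types. All 7 PANC-1 markers passed the filter, with a summed TPM of 6080.4, 6528.6 and 6820.4 in +/+ cells and 6255.4, 5996.7 and 5608.1 in -/- cells. VIM was the most abundant, at a mean TPM of 4159.3 and 2684.4, and the keratins KRT8, KRT18 and KRT19 were called higher in -/- cells while VIM and EPCAM were called lower. None of the 5 acinar, 4 islet and 3 endothelial markers passed the filter, and CELA3A, PNLIP, AMY2A, INS and SST had 0 counts in all 6 libraries. Summed TPM in +/+ and then -/- samples was 0.11, 0, 0 and 0.2, 0, 0 for the acinar list, led by CPA1, 0, 0, 0.33 and 0.11, 0.05, 0 for the islet list, led by GCG, and 0.03, 0.1, 0.04 and 0.05, 0.22, 0.03 for the endothelial list, led by VWF. Of 5 fibroblast markers THY1 alone passed and was not called, COL1A2 was at 0 in all 6 libraries, and the summed TPM was 3.78, 2.63 and 4.73 against 2.63, 5.5 and 2.57. Of 4 leukocyte markers CD68, a lysosomal protein that is not limited to leukocytes, was called higher at 66.6 against 43.5 TPM and made up nearly all of the sum of 43.4, 41.1 and 46.5 against 68.3, 64.8 and 67.4, while PTPRC, which defines leukocytes, had at most 1 count in any library. Their part in the HOX results was not tested.

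Which clusters the line used differed widely before any comparison. The summed TPM of all HOX genes in +/+ cells was 349.2, 376.4 and 392.6, of which HOXB genes gave 70.8% on average, HOXC genes 28.5%, HOXA genes 0.697% and HOXD genes 0.0318%. In -/- cells it was 268.8, 265.8 and 275.8, of which HOXB genes gave 52.7%, HOXC genes 40.7%, HOXA genes 4.48% and HOXD genes 2.13%. All 3 -/- sums lay below all 3 +/+ sums (372.7 ± 21.9 and 270.1 ± 5.18, mean and SD, n = 3 each, two-sided exact permutation p = 0.1, which is the smallest p that 3 samples against 3 can give, and 0.133 after Benjamini-Hochberg adjustment over 8 sums).

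The clusters differed in direction. HOXB, on chromosome 17, summed to 249.4, 261.9 and 280.2 TPM in +/+ cells and to 137.9, 146.0 and 143.2 in -/- cells, a ratio of 0.540 without overlap. HOXA, on chromosome 7, summed to 3.43, 2.01 and 2.26 TPM in +/+ cells and to 13.5, 10.5 and 12.4 in -/- cells, 4.72 times as much and also without overlap. For HOXD, on chromosome 2, the sums were 0.25, 0.09 and 0 TPM in +/+ cells and 6.02, 5.47 and 5.73 in -/- cells. Its log2 ratio of 5.66 rests on very low +/+ levels and became 6.99 without +/+ replicate 1 and 5.08 without +/+ replicate 3. For each of these 3 clusters the two-sided exact permutation p was 0.1 (n = 3 each), the smallest possible, and 0.133 after adjustment over the 8 sums. HOXC, on chromosome 12, summed to 96.1, 112.4 and 110.1 TPM in +/+ cells and to 111.4, 103.8 and 114.5 in -/- cells, so the groups overlapped (exact permutation p = 0.6, n = 3 each, adjusted 0.686) and the small log2 ratio of 0.05 changed sign to -0.02 without +/+ replicate 1. In absolute level the HOXB difference exceeded those of HOXA and HOXD together, and the clusters with the largest ratios stayed the least abundant.

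**Figure D1:**
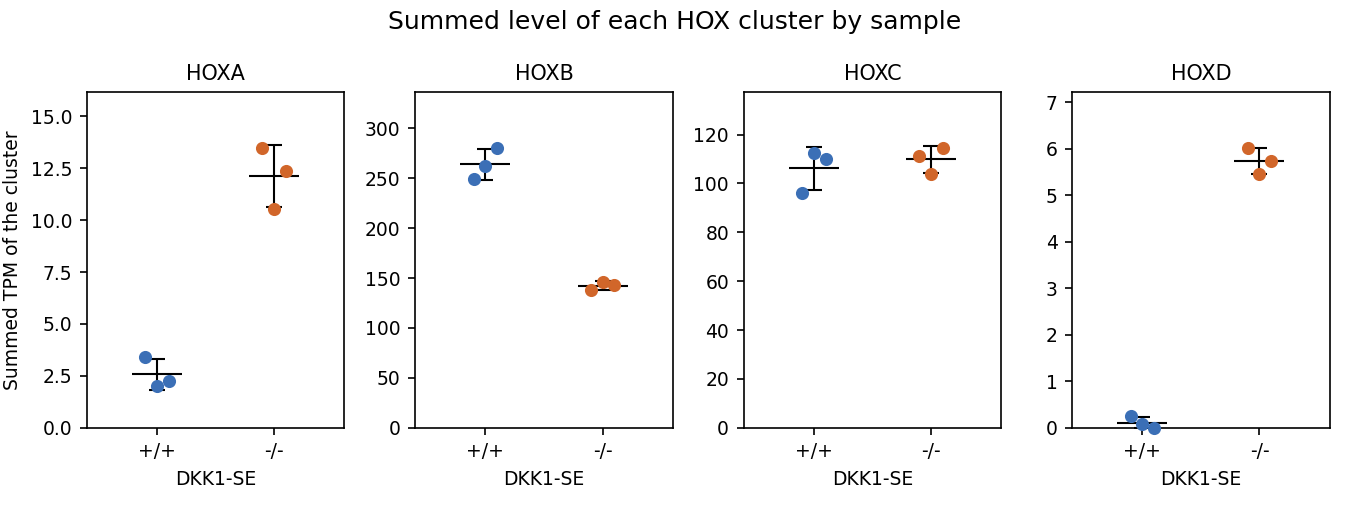
Summed TPM of the genes of each HOX cluster in each of 6 samples, with points for samples, the long line for the mean and bars for the SD of 3 samples. The -/- samples lie below the +/+ samples for HOXB (137.9 to 146.0 against 249.4 to 280.2), above them for HOXA and HOXD, and among them for HOXC.

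Genes were also summed in 3 groups by paralogue number. Anterior genes, numbered 1 to 3, summed to 70.8 ± 3.36 TPM in +/+ cells and 32.0 ± 0.540 in -/- cells (mean and SD, n = 3 each, exact permutation p = 0.1), and central genes, numbered 4 to 8, to 189.1 ± 13.1 and 125.9 ± 4.37 (n = 3 each, exact permutation p = 0.1). Posterior genes, numbered 9 to 13, summed to 112.8 ± 6.55 and 112.2 ± 4.77 (n = 3 each, exact permutation p = 0.8), with groups that overlapped and a log2 ratio of -0.01 on TPM and 0.02 on CPM, which is not divided by length. Within the posterior sum, gains of HOXA, HOXD and HOXB13 stood beside losses of HOXB9 and HOXC13. Mean TPM in +/+ and -/- cells was 53.2 and 55.8 for HOXC10, 14.2 and 17.4 for HOXC9 and 3.62 and 3.59 for HOXC11. The groups overlapped for each of these HOXC genes.

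The filter on low counts was passed by 26 of the 39 genes, and 18 of these 26 were called, 10 higher and 8 lower in -/- cells. Among all 15179 tested genes 39.3% were called, 19.8% higher and 19.5% lower. Of the 26 genes, 7 had fewer than 10 counts in each +/+ library and passed the filter through the -/- libraries, so they had to differ and their number supports nothing. In the other 19 genes 11 were called, 3 higher and 8 lower. The study's DEG limits are an unadjusted p under 0.05 and a fold change of 1.2, whose scale is not stated and which the design took as log2, the stricter reading. At that log2 limit 9 HOX genes were past it upward (background 4.96%), 7 of them the genes with low +/+ counts, and HOXB2 alone downward (background 3.7%); in the other 19 genes it was 2 and 1. Read as a linear fold change, an alternative added after seeing the data, 12 HOX genes were past 1.2 at the same p limit upward (background 24.3%) and 8 downward (background 23.3%), of which 5 and 8 were among the 19. TPM of the groups did not overlap for 18 of the 26 genes and for 11 of the 19, against 44.2% of all tested genes.

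**Figure D2:**
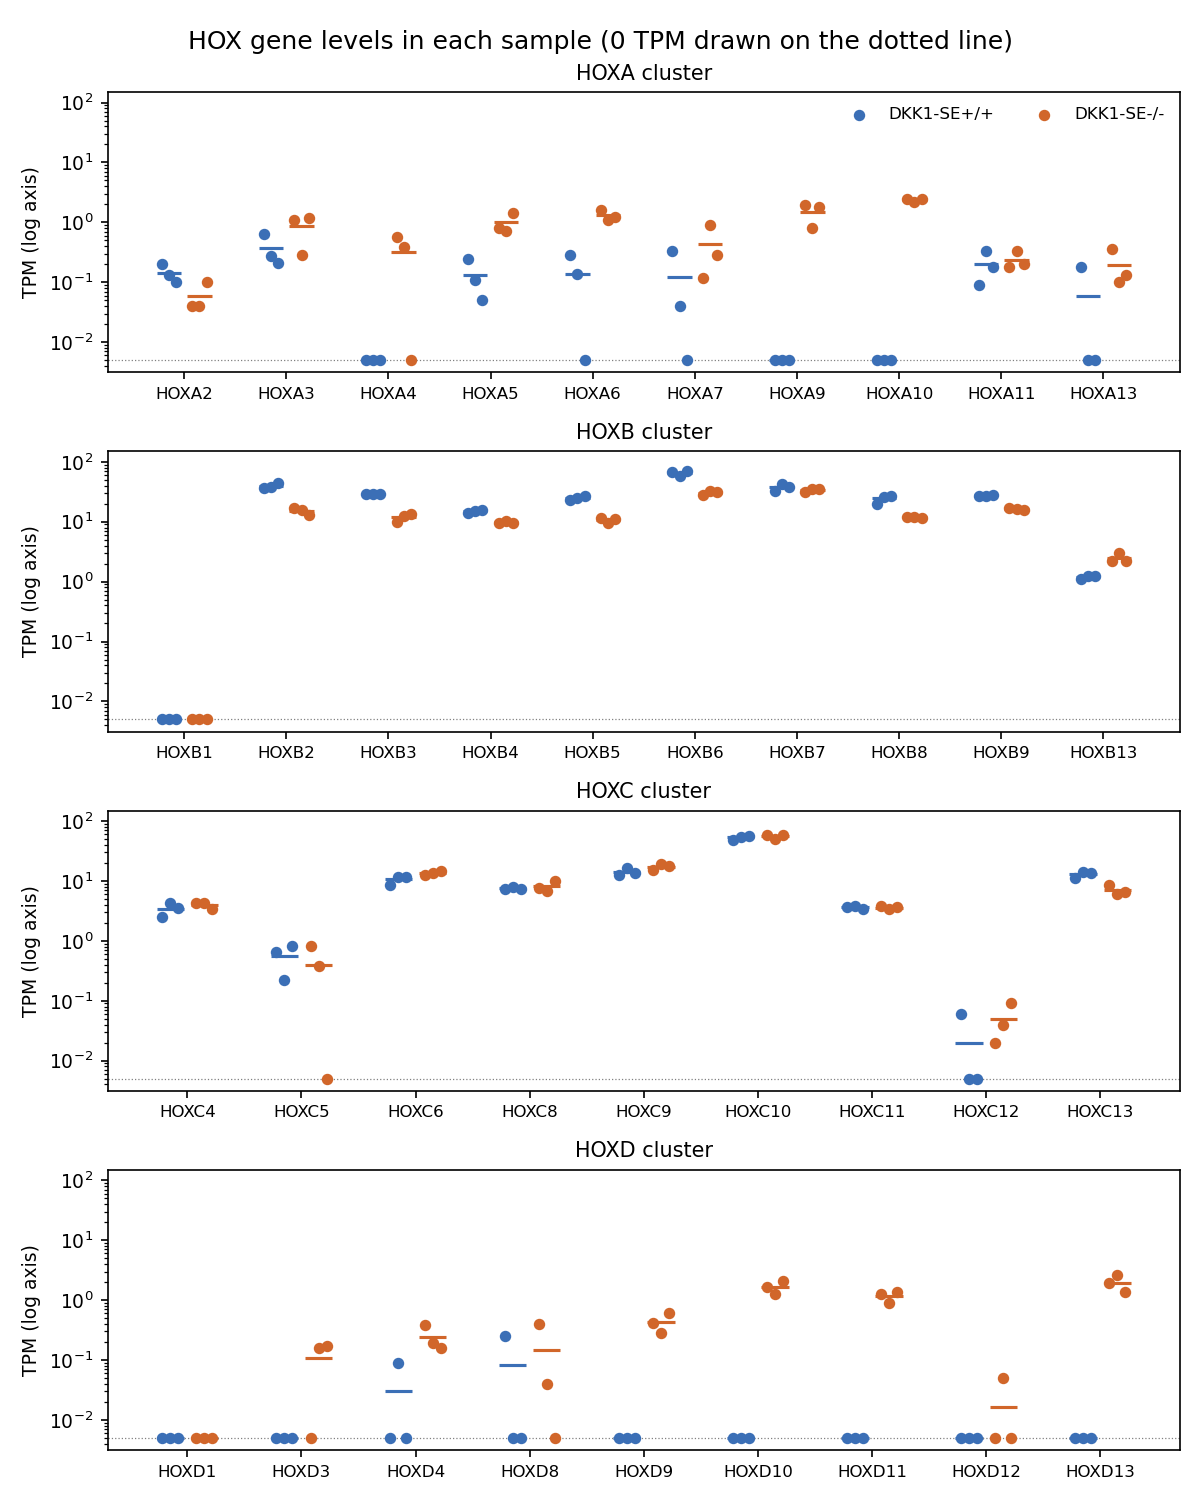
TPM of HOX genes in each sample on a log axis, by cluster, with short lines for group means and samples at 0 TPM drawn on the dotted line; not every gene is drawn. HOXB genes from HOXB2 to HOXB9 lie between 9 and 72 TPM, and of these HOXB7 alone overlaps between the groups, while HOXA9, HOXA10, HOXD10, HOXD11 and HOXD13, like the untested HOXA4, HOXD3, HOXD9 and HOXD12, leave the dotted line in -/- samples alone.

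HOXB genes gave the larger part of the summed HOX TPM in both groups. HOXB6, the highest of all 39 in +/+ cells, is a central gene studied in blood and skin development. Its TPM was 66.4, 57.4 and 71.3 in +/+ cells and 28.3, 31.9 and 30.9 in -/- cells, so every -/- sample lay under every +/+ sample, at a log2 fold change of -0.91 (SE 0.128, edgeR quasi-likelihood, Benjamini-Hochberg adjusted p = 0.000334). HOXB2, which patterns hindbrain segments and cranial nerves, had 36.8, 38.7 and 43.5 TPM against 17.0, 15.7 and 12.8. It showed the largest fall among the tested HOX genes, again without overlap, with a log2 fold change of -1.24 (SE 0.162, edgeR quasi-likelihood, Benjamini-Hochberg adjusted p = 0.000215). That value sits just past the log2 limit of 1.2, and it was -1.16 without +/+ replicate 3 and -1.10 without -/- replicate 3, so that no HOX gene met that downward limit in either case. HOXB3, which acts in hindbrain and pharyngeal arch development, had 29.5, 28.9 and 29.1 TPM against 9.83, 12.6 and 13.6, a log2 fold change of -1.12 (SE 0.109, edgeR quasi-likelihood, Benjamini-Hochberg adjusted p = 3.14e-05) with all -/- samples lower.

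HOXB5, a regulator of enteric nerve and lung development, had 22.6, 24.4 and 26.8 TPM in +/+ cells and 11.5, 9.69 and 11.1 in -/- cells. HOXB8, known for blocking the maturation of myeloid cells when overexpressed, had 20.1, 26.2 and 27.0 against 12.1, 12.2 and 11.5. For both genes the 3 -/- samples were lower than all +/+ samples, with log2 fold changes of -1.04 and -0.89 (edgeR quasi-likelihood, Benjamini-Hochberg adjusted p = 0.000166 and 0.000767). HOXB9, which patterns ribs and acts in mammary development, had 27.0, 26.8 and 28.4 TPM against 16.8, 16.1 and 15.8, likewise without overlap. The log2 fold change was -0.60 (SE 0.115, edgeR quasi-likelihood, Benjamini-Hochberg adjusted p = 0.00226).

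HOXB4, used to expand blood stem cells, fell least of the called HOXB genes. Its TPM was 13.8, 15.1 and 15.6 in +/+ cells and 9.45, 10.1 and 9.67 in -/- cells, without overlap, at a log2 fold change of -0.44 (SE 0.129, edgeR quasi-likelihood, Benjamini-Hochberg adjusted p = 0.0187). The adjusted p became 0.0743 without +/+ replicate 2 and 0.0797 without +/+ replicate 3, within a range of 0.0002 to 0.0797 over all alternatives, while the direction held in each. HOXB7, linked to growth factor expression in melanoma and breast cancer cells, stood apart from the genes on either side of it. It had 32.1, 43.2 and 37.3 TPM against 30.8, 34.6 and 35.6, with overlapping groups, a fold of 0.998 (95% interval of the log2 fold change -0.28 to 0.27) and an edgeR quasi-likelihood adjusted p of 0.988. The sign of that near-0 log2 value changed to 0.03 without +/+ replicate 2 and to 0.09 without -/- replicate 3. Transcripts of HOXB3, HOXB4 and HOXB6 share exonic bases, 433 between HOXB3 and HOXB6 and 44 between HOXB3 and HOXB4, and how reads there were divided among them is not given.

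At the far end of the cluster HOXB13 went the other way. This gene marks prostate and distal gut, and a stretch of 98.4 kb separates it from HOXB9, whereas no other gap between neighbouring genes of the 4 clusters exceeded 35.4 kb. It had 1.09, 1.26 and 1.23 TPM in +/+ cells and 2.23, 3.04 and 2.25 in -/- cells, so all -/- samples were higher, with a log2 fold change of 1.23 (SE 0.221, edgeR quasi-likelihood, Benjamini-Hochberg adjusted p = 0.00144). This value, too, sits just past the log2 limit of 1.2. It was 1.17 without +/+ replicate 1, 1.03 without -/- replicate 2 and 0.98 with a GC-content offset, while HOXB13 stayed called. HOXB1, at the opposite end, had 0 counts in all 6 libraries. The median log2 fold change of the 9 tested HOXB genes was -0.89, against 0.03 over all tested genes.

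**Figure D3:**
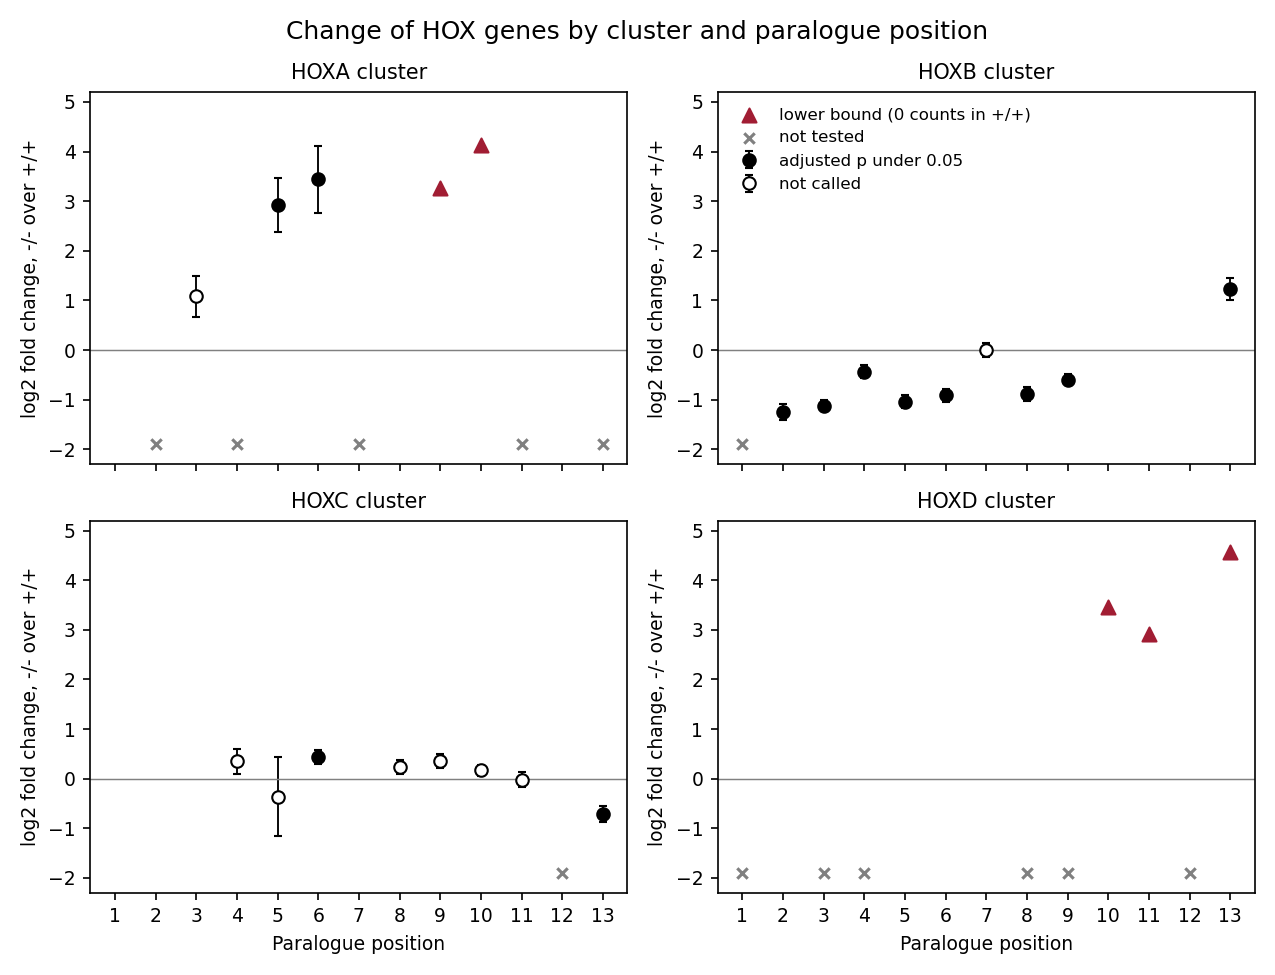
Log2 fold change of HOX genes, -/- over +/+, against its paralogue position in the 4 clusters, with bars for 1 SE. Circles are fitted values (filled where called), triangles are lower bounds for genes with 0 counts in all +/+ libraries, and crosses, drawn at the bottom for want of a value, are untested genes. Not every gene is drawn, and HOXB genes 2 to 9 lie at or below 0, and the tested HOXA and HOXD genes above it.

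In the HOXA cluster 3 of 11 genes had 0 counts in all +/+ libraries, and 6 genes were tested. Of the tested genes, HOXA5, HOXA6, HOXA9 and HOXA10 passed the filter through the -/- libraries. They had to differ, so their p-values add no support. HOXA10, required for uterine development and overexpressed in some myeloid leukaemias, had 0 TPM in every +/+ sample and 2.45, 2.21 and 2.43 in -/- cells, from 50, 52 and 45.3 counts. Against a floor of 3 counts per library it was at least 17.6-fold higher (edgeR quasi-likelihood, Benjamini-Hochberg adjusted p = 3.54e-05), in 3 of 3 -/- samples. HOXA9, a partner of MEIS1 in leukaemia, had 0 TPM in every +/+ sample and 1.93, 0.8 and 1.78 in -/- cells, from 31, 19 and 29 counts. It was at least 9.58-fold higher (edgeR quasi-likelihood, Benjamini-Hochberg adjusted p = 0.000256), again in 3 of 3 samples. Both share exonic bases with the antisense HOXA10-AS, 608 for HOXA10 and 422 for HOXA9. Whether counting was strand-specific is not given in the sources used here, so the values of both genes are uncertain, and HOXA10-AS itself had at most 4.75 counts in any library.

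HOXA5, which acts in lung development and can activate p53 transcription, had 0.24, 0.11 and 0.05 TPM against 0.82, 0.73 and 1.44. Its 9 counts over the +/+ libraries and 64 over the -/- libraries gave a depth-scaled ratio of 7.73 (95% exact conditional interval 3.83 to 17.7), without overlap (edgeR quasi-likelihood, Benjamini-Hochberg adjusted p = 0.00194). HOXA6, a central gene with few known roles of its own, had 0.28, 0.14 and 0 TPM against 1.63, 1.08 and 1.24, from 4 and 43 counts. The ratio was 11.7 (interval 4.25 to 44.8), with all 3 -/- samples higher (edgeR quasi-likelihood, Benjamini-Hochberg adjusted p = 0.00241). At so few +/+ counts single libraries matter: the fitted log2 fold change of HOXA5 went from 2.92 to 3.72 without +/+ replicate 1, and that of HOXA6 from 3.44 to 4.54 without +/+ replicate 1 and to 2.92 without +/+ replicate 3. HOXA6 also shares 505 exonic bases with the antisense HOXA-AS3, which was called higher too, so the pair may not be separate observations.

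HOXA3, needed for thymus and parathyroid, was not called. It had 0.63, 0.27 and 0.21 TPM against 1.09, 0.28 and 1.2, with -/- replicate 2 inside the +/+ range, a log2 fold change of 1.08 and an edgeR quasi-likelihood adjusted p of 0.0581. Without -/- replicate 2 the adjusted p was 0.0373, within a range of 0.0373 to 0.224 over all alternatives. The other 5 HOXA genes were not tested, with highest counts in any library of 5 for HOXA2, 7.85 for HOXA4, 7 for HOXA7, 13.8 for HOXA11 and 15 for HOXA13. HOXA13, which forms digits and the urogenital tract, had 2 counts over the +/+ libraries and 32 over the -/- libraries, a ratio of 17.4 (95% exact conditional interval 4.44 to 149.7), but its TPM overlapped, at 0.18, 0 and 0 against 0.36, 0.1 and 0.13. HOXA7 had 3 and 17 counts, a ratio of 6.16 (1.78 to 32.8), and also overlapped in TPM, at 0.33, 0.04 and 0 against 0.12, 0.89 and 0.28. HOXA7 shares 1507 exonic bases with the antisense HOXA-AS3, which was called higher, so the pair may not be separate observations. HOXA4 had 0 and 13 counts, at least 1.59-fold higher against 3 counts per library, though -/- replicate 3 had 0 as well. The intervals of HOXA11, with 17 and 27 counts (0.907 to 3.37), and of HOXA2, with 10 and 4 counts (0.0995 to 1.51), include a ratio of 1, and HOXA2 was the member of this cluster with more counts in +/+ cells.

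HOXD was near silent in +/+ cells, where 7 of its 9 genes had 0 counts in all 3 libraries. The tested HOXD10, HOXD11 and HOXD13 passed the filter through the -/- libraries, so they had to differ and their p-values add no support. HOXD13, which shapes digits and is mutated in synpolydactyly, had 0 TPM in every +/+ sample and 1.91, 2.61 and 1.38 in -/- cells, from 60, 98 and 42 counts. It was at least 23.5-fold higher against 3 counts per library (edgeR quasi-likelihood, Benjamini-Hochberg adjusted p = 5.57e-05), in 3 of 3 samples, the highest bound among the HOX genes. HOXD10, active in limb and lumbar motor neurons, had 0 TPM in every +/+ sample and 1.66, 1.25 and 2.07 in -/- cells. It was at least 11.01-fold higher in 3 of 3 samples (edgeR quasi-likelihood, Benjamini-Hochberg adjusted p = 0.000118). HOXD11, which with HOXA11 forms the forearm and kidney, had 0 TPM in every +/+ sample and 1.25, 0.89 and 1.34 in -/- cells, at least 7.55-fold higher in 3 of 3 samples (edgeR quasi-likelihood, Benjamini-Hochberg adjusted p = 0.000234). HOXD10 and HOXD11 share 452 exonic bases on the same strand, so the pair are not fully separate measurements.

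The 6 other HOXD genes did not pass the filter, and HOXD1 had 0 counts in all 6 libraries. HOXD9 came closest, with 0 counts in +/+ libraries and 10, 8 and 14 in -/- libraries, at least 3.85-fold higher. HOXD4 had 1 count over the +/+ libraries and 10 over the -/- libraries, a ratio of 10.9 with a wide 95% exact conditional interval of 1.55 to 471.5. HOXD3 had 0 and 8 counts and HOXD12 0 and 2, at or under the floor, so that no fold is given, and HOXD8 had 6 and 9 counts (ratio 1.63, interval 0.518 to 5.56). HOXD12 lies between HOXD13 and HOXD11, 3.9 kb from the former and 1.7 kb from the latter, yet stayed at or below 2 counts in every library. With the filter removed, HOXD9 (adjusted p = 1.93e-05), HOXA13 (adjusted p = 0.000671) and HOXA4 (adjusted p = 0.0208) were also called higher by edgeR quasi-likelihood with Benjamini-Hochberg adjustment.

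Promoter sequences are shown for the 5 tested genes that had 0 counts in every +/+ library, together with HOXD12, the neighbour that stayed near 0. RefSeq promoters (build GRCh38.p14) were available for 20 of the 39 HOX genes, and those without an entry include HOXA5, HOXB2 to HOXB9, HOXB13, HOXC6, HOXC8 to HOXC13 and HOXD9. Each run holds the 250 bases before the annotated start, 5′ to 3′ on the strand of the gene, and capitals mark every match, on either strand, to TATAAA (the TATA box), CCAAT (the CCAAT box), TGATNNAT (a HOX-PBX composite site), TGANTCA (AP-1) or TTAATTA (a homeodomain core). HOXA9 is at chr7:27165538-27165787 on the minus strand, inside introns of a longer HOXA9 transcript and of the readthrough gene ENSG00000257184. HOXA10 is at chr7:27174321-27174570 on the minus strand, inside introns of longer HOXA10 and HOXA9 transcripts and of the same readthrough gene, which had 0 counts in all 6 libraries. HOXD10 is at chr2:176116528-176116777 on the plus strand, in an intron of a longer HOXD10 transcript, and HOXD11 is at chr2:176107030-176107279 on the plus strand, within the HOXD11 gene. HOXD12 at chr2:176099545-176099794 and HOXD13 at chr2:176092471-176092720, both on the plus strand, lie between genes. None of the 6 windows overlaps an annotated exon.

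HOXA9: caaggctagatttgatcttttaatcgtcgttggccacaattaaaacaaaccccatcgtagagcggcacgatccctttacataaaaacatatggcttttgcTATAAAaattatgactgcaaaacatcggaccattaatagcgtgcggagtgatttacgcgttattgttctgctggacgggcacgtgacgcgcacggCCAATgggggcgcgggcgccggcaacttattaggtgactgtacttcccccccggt
HOXA10: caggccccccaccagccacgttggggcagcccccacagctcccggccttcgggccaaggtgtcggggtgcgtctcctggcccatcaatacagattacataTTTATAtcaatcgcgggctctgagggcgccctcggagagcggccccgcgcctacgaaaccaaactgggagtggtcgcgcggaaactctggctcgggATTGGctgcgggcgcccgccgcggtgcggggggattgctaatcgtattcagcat
HOXD10: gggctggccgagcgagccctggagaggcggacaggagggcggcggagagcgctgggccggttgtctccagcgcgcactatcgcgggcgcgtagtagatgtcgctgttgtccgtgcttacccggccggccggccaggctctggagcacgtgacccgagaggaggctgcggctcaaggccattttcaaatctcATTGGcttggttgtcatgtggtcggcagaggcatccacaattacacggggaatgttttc
HOXD11: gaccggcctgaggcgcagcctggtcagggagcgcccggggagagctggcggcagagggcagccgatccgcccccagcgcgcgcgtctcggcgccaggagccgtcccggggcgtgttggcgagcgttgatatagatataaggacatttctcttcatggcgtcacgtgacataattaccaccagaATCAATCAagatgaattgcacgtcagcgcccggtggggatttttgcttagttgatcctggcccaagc
HOXD12: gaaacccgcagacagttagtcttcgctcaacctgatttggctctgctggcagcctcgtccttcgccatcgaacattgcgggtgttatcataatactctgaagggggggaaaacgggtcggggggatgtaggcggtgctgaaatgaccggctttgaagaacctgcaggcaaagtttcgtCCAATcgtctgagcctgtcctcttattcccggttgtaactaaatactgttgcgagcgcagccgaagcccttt
HOXD13: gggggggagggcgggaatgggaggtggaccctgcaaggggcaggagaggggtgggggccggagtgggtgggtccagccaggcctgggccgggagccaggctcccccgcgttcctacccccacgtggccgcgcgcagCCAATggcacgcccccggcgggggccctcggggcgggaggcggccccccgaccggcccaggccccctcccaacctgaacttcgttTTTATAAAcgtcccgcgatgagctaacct

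The entries of HOXC4 and HOXC5 are 1 and the same window, in an exon of HOXC6, so the 20 genes have 19 distinct windows. The CCAAT box occurs in 5 of the 6 windows shown, HOXD11 being the exception, and in 16 of the 19, against 32% of all 34943 distinct windows in the table. TATAAA occurs in HOXA9 and HOXA10, each 150 bases before the start, and in HOXD13, where matches on both strands overlap in 1 run of capitals near 29 bases before the start. It was found in 4 of the 19 HOX windows and in 10.8% of all windows. TGATNNAT was found in HOXD11 and in 3 of the 19, against 6.49% of all windows, TTAATTA in HOXD3 alone of the 19 (2.45% of all), and TGANTCA in 0 of the 19 (6.59% of all). HOX windows held a median of 21 CpG pairs, compared with 11 over the whole table. HOXD12, with a CCAAT box and low counts, has the same single kind of match as HOXD10. Any part of these letters in the levels of the genes was not tested.

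HOXC differed least. HOXC10, a gene of the hindlimb and lumbar cord, had 49.2, 54.1 and 56.3 TPM in +/+ cells and 58.6, 50.5 and 58.2 in -/- cells, overlapping groups that made it the highest HOX gene of -/- cells and HOXB6 the third, after HOXB7. HOXC13, which drives hair and nail keratins, was the called HOXC gene that fell. Its TPM was 11.4, 14.0 and 13.5 against 8.57, 6.17 and 6.57, all -/- samples lower, at a log2 fold change of -0.71 (SE 0.169, edgeR quasi-likelihood, Benjamini-Hochberg adjusted p = 0.00685). HOXC6, studied in mammary gland and prostate cancer, had 8.53, 11.8 and 11.5 TPM against 12.6, 13.4 and 14.5, without overlap, at a log2 fold change of 0.44 (SE 0.134, edgeR quasi-likelihood, Benjamini-Hochberg adjusted p = 0.0231). This call was weak: the adjusted p was 0.123 without +/+ replicate 1, 0.0701 without +/+ replicate 2 and 0.0727 without -/- replicate 2, within a range of 0.0151 to 0.156 over all alternatives.

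The other tested HOXC genes were not called by edgeR quasi-likelihood, and their groups overlapped in TPM. The log2 fold change was 0.35 for HOXC4, which acts in B cells, 0.24 for HOXC8 and 0.35 for HOXC9, which pattern thoracic segments, 0.17 for HOXC10, -0.02 for HOXC11 and -0.36 for HOXC5 (SE 0.79). HOXC9 had an adjusted p of 0.0665, and of 0.0141 without -/- replicate 3, within a range of 0.0141 to 0.35. Without -/- replicate 1 the log2 fold change of HOXC5 was -1.35. Its sign changed to 0.21 and that of HOXC11 to 0.01 when -/- replicate 3 was left out. HOXC12 was not tested, with 3 and 7 counts and at most 4 in any library. HOXC4 and HOXC6 share 484 exonic bases and HOXC6 and HOXC9 share 73. The median log2 fold change of the 8 tested HOXC genes was 0.20, and 2 of 8 were called, beside 39.3% of all tested genes and with no test between the shares.

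Non-coding genes of the clusters were listed for 19 of 22 symbols, HOXB-AS5, HOXB7-AS1 and HOXC-AS5 being absent from the table. Of the 9 tested, 3 were called, near the share of all genes, with a median log2 fold change of -0.29. HOXB-AS3, antisense to HOXB6, had 17.7, 16.3 and 20.4 TPM against 8.68, 10.5 and 10.9, all -/- samples lower, at a log2 fold change of -0.92 (edgeR quasi-likelihood, Benjamini-Hochberg adjusted p = 0.00737), close to that of HOXB6 itself. The pair share 425 exonic bases on opposite strands, and whether counting was strand-specific is not given, so they may not be separate observations. HOXA-AS3 had 10 counts over the +/+ libraries and 55 over the -/- libraries, a ratio of 5.98 (95% exact conditional interval 3.02 to 13.2), higher in 3 of 3 samples (edgeR quasi-likelihood, Benjamini-Hochberg adjusted p = 0.0107). HOTAIRM1, a transcript of the HOXA cluster, gave opposite readings by scale: counts rose, with a log2 fold change of 0.99 (edgeR quasi-likelihood, Benjamini-Hochberg adjusted p = 0.0135), whereas TPM was 46.1, 6.47 and 9.99 against 15.5, 22.4 and 14.1 and overlapped through +/+ replicate 1. HOTAIR, a HOXC transcript known for binding Polycomb complexes, was not called at 6.48 and 5.04 mean TPM (log2 fold change -0.33, edgeR quasi-likelihood adjusted p = 0.219). Among the untested, HOTTIP reached at most 3 counts, HAGLR of the HOXD cluster had 6 and 27 counts (ratio 4.89, interval 1.98 to 14.5) and HOXA11-AS had 4 and 36 (ratio 9.78, interval 3.51 to 37.8). The readthrough ENSG00000273046 was tested and not called, and ENSG00000273049 had at most 7.5 counts.

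HOX proteins bind DNA with TALE cofactors, of which 9 of 10 were tested and 4 called, 2 in each direction (44.4%, near the background). PBX3, a partner of HOX proteins in DNA binding, had 22.3, 21.8 and 18.9 TPM against 13.3, 11.6 and 15.3 and was lower in 3 of 3 samples (log2 fold change -0.38, edgeR quasi-likelihood, Benjamini-Hochberg adjusted p = 0.0313). MEIS1, the partner of HOXA9 in leukaemia, had 35, 32 and 24 counts against 10, 9 and 13, lower in 3 of 3 libraries by counts (log2 fold change -1.38, edgeR quasi-likelihood, Benjamini-Hochberg adjusted p = 0.0117), although TPM overlapped at -/- replicate 3. PBX4 was called higher (log2 fold change 1.09), also with overlapping TPM, and PBX2, MEIS2 and MEIS3 were not called (0.11, -0.03 and -0.09).

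**Figure D4:**
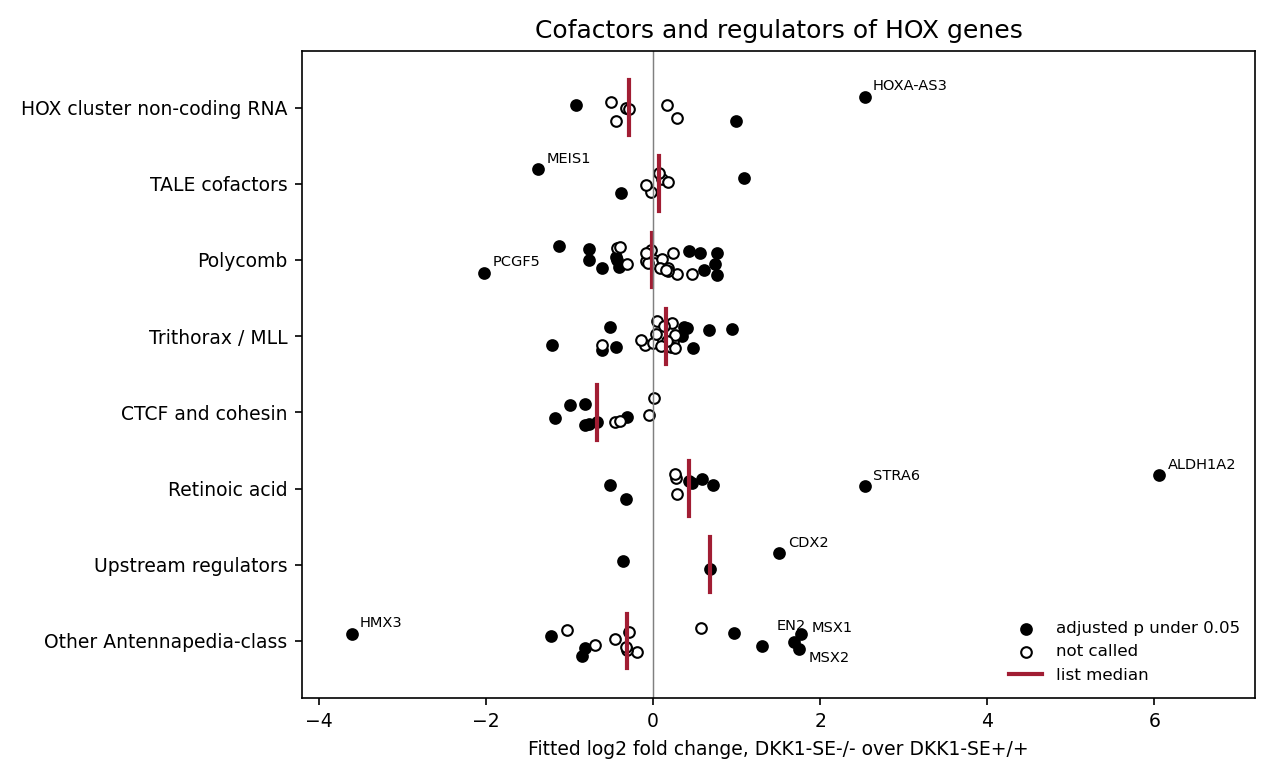
Fitted log2 fold change, -/- over +/+, of tested genes in 8 lists around the HOX genes, filled where called, with a line at the median of each whole list; not every gene is drawn. ALDH1A2 has 2 counts over the +/+ libraries, so its fitted value is not precise, and the list of CTCF and cohesin genes has the lowest median, -0.67.

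Among Polycomb genes, which silence HOX clusters, 34 of 34 were tested, 7 called higher and 8 lower (44.1%, near the background), with a median of -0.01. Of the enzyme complex that methylates histone H3, EZH2 was not called (log2 fold change -0.03, edgeR quasi-likelihood adjusted p = 0.851). Its partners SUZ12 (27.0 to 14.5 mean TPM, log2 fold change -0.77, adjusted p = 0.011) and EED (16.9 to 12.2 mean TPM, -0.41, adjusted p = 0.0434) were lower by edgeR quasi-likelihood in 3 of 3 samples, and its accessory PHF1 was called higher (0.74). Genes of the other complex, which ubiquitinates histone H2A and reads the methyl mark, went both ways. PCGF5, a subunit of variant forms, had 12.9, 12.4 and 13.5 TPM against 3.65, 3.45 and 4.33, all -/- samples lower (log2 fold change -2.02, edgeR quasi-likelihood, Benjamini-Hochberg adjusted p = 9.8e-06), and RYBP and PCGF6, of variant forms as well, were called lower (-0.77 and -1.13). PCGF5 and PCGF6 lie on chromosome 10, as DKK1-SE does, and the part of that position in their falls was not tested. The reader CBX2 was called higher (0.77).

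Trithorax and MLL genes, which keep HOX genes active, were tested in 24 of 24 cases, 6 called higher and 4 lower (41.7%, near the background), with a median of 0.15. KMT2A, the MLL1 methyltransferase, was not called (log2 fold change 0.05, edgeR quasi-likelihood adjusted p = 0.786). Its partner MEN1 had 27.6, 29.4 and 34.7 TPM against 49.4, 40.2 and 39.6, higher in 3 of 3 samples (log2 fold change 0.67, edgeR quasi-likelihood, Benjamini-Hochberg adjusted p = 0.00364). The core subunit ASH2L had 26.6, 30.1 and 30.4 TPM against 13.5, 10.6 and 13.3, lower in 3 of 3 (log2 fold change -1.21, edgeR quasi-likelihood, Benjamini-Hochberg adjusted p = 1.78e-05). KDM6B, a demethylase that removes the Polycomb mark, was called higher by counts (0.94) but overlapped in TPM, SETD1B was called higher (0.48), and DPY30 and the chromatin tether PSIP1 were called lower (-0.45 and -0.61).

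CTCF and cohesin divide HOX clusters into domains, and 7 of 11 such genes were called, each lower (63.6%, beside 39.3% of all tested genes called and 19.5% lower), with a median of -0.67. The cohesin subunit RAD21 had 88.5, 90.7 and 86.3 TPM against 36.9, 45.1 and 62.7, without overlap (log2 fold change -0.77, edgeR quasi-likelihood, Benjamini-Hochberg adjusted p = 0.000932). The loader NIPBL (-1.18) and the release factor WAPL (-0.67) were called lower, and CTCF itself was not called (log2 fold change -0.05, edgeR quasi-likelihood adjusted p = 0.76). The -/- libraries also stood apart from each other. In each called gene of this list -/- replicate 3 was the highest of them, and -/- replicate 1 the lowest except in SMC1A. NIPBL, for example, had 11.9, 9.68 and 12.5 TPM against 2.29, 4.99 and 6.63. The part of this spread in the change of the list was not tested.

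Of 18 retinoic acid genes 11 were tested, 6 called higher and 2 lower (72.7%, beside 39.3% of all tested genes), with a median of 0.43. The 6 include ALDH1A2, which passed the filter through the -/- libraries and so had to differ. ALDH1A2, which makes retinoic acid in embryos, had 0, 0 and 2 counts in +/+ libraries and 36, 65 and 47 in -/- libraries, a ratio of 80.4 (95% exact conditional interval 21.9 to 670.1), higher in 3 of 3 (edgeR quasi-likelihood, Benjamini-Hochberg adjusted p = 5.72e-05). At 1.53 TPM it remained far below ALDH1A3, which makes the same product and had 49.3, 52.6 and 56.3 TPM against 33.6, 40.7 and 36.2, lower in 3 of 3 samples (log2 fold change -0.33, edgeR quasi-likelihood, Benjamini-Hochberg adjusted p = 0.019). The retinol receptor STRA6 had 0.2, 0.16 and 0.57 TPM against 1.93, 1.81 and 1.03, higher in 3 of 3 (log2 fold change 2.53, edgeR quasi-likelihood, Benjamini-Hochberg adjusted p = 0.00158). RDH10, which makes retinal, was called higher with overlapping TPM (0.72), and CYP26B1, which degrades retinoic acid, was called lower (-0.52). Retinoic acid itself was not measured.

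Of 9 further upstream regulators 3 were tested and each was called, beside 39.3% of all tested genes, too few to compare. GDF11, a signal that shifts HOX expression toward posterior genes in the embryo, had 3.92, 4.01 and 4.39 TPM against 8.59, 5.42 and 7.8, higher in 3 of 3 samples (log2 fold change 0.68, edgeR quasi-likelihood, Benjamini-Hochberg adjusted p = 0.00409). CDX2, an intestinal factor that binds HOX clusters, had 6, 9 and 6 counts against 15, 28 and 14 (log2 fold change 1.51, edgeR quasi-likelihood, Benjamini-Hochberg adjusted p = 0.0218), higher in 3 of 3 by counts and overlapping in TPM. Like HOXA-AS3 and ALDH1A2, it had fewer than 10 counts in each +/+ library and so passed the filter through the -/- libraries. GMNN, a replication inhibitor that binds HOX and Polycomb proteins, was called lower (-0.36).

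Homeobox genes of the same Antennapedia class outside the clusters went both ways. Of 39 listed, 17 were tested, 5 called higher and 4 lower (52.9%, beside 39.3% of all tested genes), with a median of -0.31. MSX2, a target of BMP signals, had 3.38, 2.94 and 4.31 TPM against 12.5, 10.3 and 9.65, higher in 3 of 3 (log2 fold change 1.74, edgeR quasi-likelihood, Benjamini-Hochberg adjusted p = 0.000105). MSX1, with overlapping TPM, and HLX were also called higher (1.77 and 0.97). HMX3, an inner ear and hypothalamus gene, had 7.2, 8.0 and 8.05 TPM against 0.77, 0.42 and 0.52, lower in 3 of 3 (log2 fold change -3.61, edgeR quasi-likelihood, Benjamini-Hochberg adjusted p = 1.11e-06), and HHEX and BARX1 were called lower (-0.85 and -0.81). PDX1, the pancreatic homeobox gene, had at most 8 counts in any library and was not tested.

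Protein-coding genes within 1 Mb of each cluster show whether its flanks moved with it. Around HOXA 5 of 8 tested neighbours were called (62.5%, beside 39.3% of all tested genes), each lower, with a median of -0.50. NFE2L3, a stress-response factor, had 94.8, 99.8 and 99.7 TPM against 34.9, 39.7 and 52.6, lower in 3 of 3 samples (log2 fold change -1.05, edgeR quasi-likelihood, Benjamini-Hochberg adjusted p = 4.05e-05). SKAP2, an adaptor protein encoded beyond the anterior end of the cluster, was not called (0.02), and the homeobox gene EVX1, beyond HOXA13, had at most 2 counts. Around HOXD 3 of 4 tested neighbours were called (75.0%), each lower, with a median of -0.46: LNPK, MTX2 and ATF2 at -0.91, -0.45 and -0.46, while the homeobox gene EVX2 next to HOXD13 had 0 counts.

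Around HOXB 13 of 28 tested neighbours were called (46.4%, beside 39.3% of all tested genes), 3 higher and 10 lower, with a median of -0.20 against -0.89 for the HOXB genes. Among the called neighbours NXPH3 was lower (-1.81), with fewer than 10 counts in each -/- library, and OSBPL7 higher (1.21). Around HOXC 13 of 28 were also called (46.4%), 11 higher and 2 lower, with a median of 0.24 against 0.20 for the HOXC genes, and KRT8 and KRT18 were among those higher, while CBX5 and HNRNPA1, on the other side, were lower (-0.42 and -0.37). No test compared flanks with clusters.

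**Figure D5:**
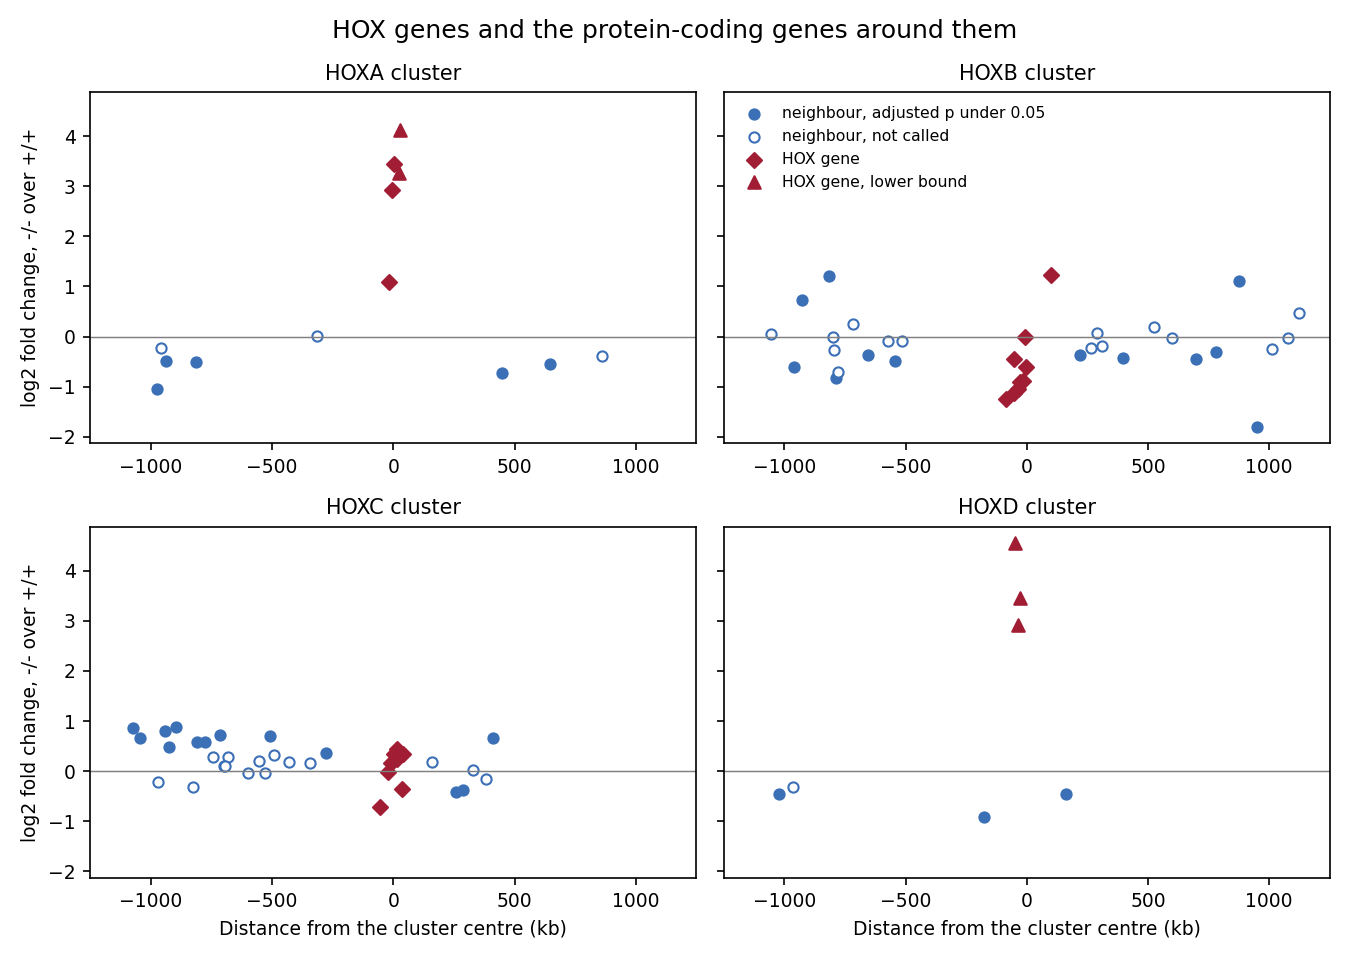
Log2 fold change, -/- over +/+, of HOX genes (diamonds, or triangles for lower bounds) and of tested protein-coding neighbours (circles, filled where called) against distance from the centre of each cluster in kb; not every gene is drawn. HOXA and HOXD genes lie above 0 between neighbours that lie at or below it, apart from SKAP2 at 0.02, while HOXC genes and their neighbours lie within 1 of 0.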

How the data were processed

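The deposited table held expected counts and TPM per gene and sample; 32.3% of the nonzero counts were not whole and were rounded. The aligner, the counting program, the annotation and strand-specific counting are not given in the sources used here. The authors' fold change and p-value columns were not used. Counts were analysed with edgeR 4.0.16 in R 4.3.3 (filterByExpr with a minimum count of 10, TMM normalization, quasi-likelihood F test, Benjamini-Hochberg adjustment over all 15179 tested genes). TMM factors lay between 0.939 and 1.04. Replicate numbers did not enter the fit. The design took the fold change limit of 1.2 on the log2 scale; the study does not state its scale, and a linear reading was added after seeing the data. Positions came from GENCODE version 44 (62625 of 62703 identifiers placed). Count ratios are scaled by depth, with exact conditional binomial intervals. Lower bounds use 3 counts per library. Sums of TPM were compared by two-sided exact permutation tests in scipy 1.17.1 (Python 3.11.15).

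The HOX members and the lists (non-coding genes of the clusters, TALE cofactors, Polycomb, Trithorax and MLL, CTCF and cohesin, retinoic acid, upstream regulators, other Antennapedia-class homeobox genes, cell type markers, neighbours within 1 Mb) were chosen with earlier results of these data known. The rule names every tested HOX gene and, in each other list, up to 3 called genes with the smallest p in each direction, plus PBX, MEIS, EZH2, SUZ12, EED, KMT2A, MEN1, CTCF, HOTAIR, HOTTIP, HOTAIRM1 and HAGLR; a few genes under this rule are left out. The neighbours SKAP2, EVX1, EVX2, KRT8 and KRT18, the readthrough genes, ENSG00000257184 included, and HOXA10-AS, HOXA11-AS and PDX1 were chosen after their values were seen.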

Additional observations from a re-analysis of the deposited data

How the results depend on the processing

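Of the 18 called HOX genes, 16 (9 higher, 7 lower) were called in the same direction in all 15 alternative fits; the exceptions were HOXB4 and HOXC6. With replicate number as a block, the adjusted p was 0.0582 for HOXB4 (range 0.0002 to 0.0797) and 0.0654 for HOXC6 (range 0.0151 to 0.156). Of the 9 higher, 7 had fewer than 10 counts in each +/+ library and passed the filter through the -/- libraries, so they had to differ and their calls do not count as stable; 2 higher and 7 lower remain.

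HOX genes past the log2 limit of 1.2 upward numbered 9, 14 without a filter and 4 with limma on log2(TPM + 1). Downward they numbered 1, but 8 with 1.2 on the linear scale, a reading added after seeing the data (12 upward). They were 3 with a GC-content offset, with or without the block, 2 with limma on either TPM scale, and 0 to 1 when leaving out 1 replicate (0 without +/+ or -/- replicate 3). Genes of the 8 lists called higher numbered 30, and 12 with limma on either scale. Those called lower numbered 29, 39 with a GC-content offset, and 19 to 35 when leaving out 1 replicate (19 without +/+ replicate 2). The cause of these differences was not tested.

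Median log2 fold changes moved as follows, and the cause was not tested. Genes that passed the filter through the -/- libraries alone make up 3 of 3 in the HOXD median, 4 of 6 in HOXA and 5 of 11 in posterior genes, which pulls these medians up; over the 19 genes without them the median was -0.02, against 0.30 for all 26. With limma on log2(TPM + 1) they became 0.12 for all tested HOX genes (from 0.30), 1.02 for HOXA (from 3.18), 1.40 for HOXD (from 8.01), -0.41 for anterior (from -0.02) and 0.67 for posterior genes (from 1.23). With limma on log2(TPM + 0.1) they were 2.50 for HOXA, -1.02 for HOXB (from -0.89) and 4.11 for HOXD. The GC-content offset gave 2.99 for HOXA, -1.14 for HOXB and -0.24 for anterior genes, and with the block 3.03, -1.13 and -0.26. DESeq2 gave 7.49 for HOXD. Placing genes at 0 in all +/+ libraries at their bound, an alternative chosen after seeing the data, gave 3.46 for HOXD. Leaving out 1 replicate gave 2.73 to 4.13 for HOXA, -0.13 to 0.10 for anterior genes (0.00 without +/+ replicate 1) and -0.13 to 0.09 for central genes (from -0.00, and 0.03 without +/+ replicate 2).

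Signs that changed were all of values near 0, except HOXC5. The summed HOXC ratio (log2 0.05) ranged from -0.02 to 0.09 and the posterior ratio (-0.01) from -0.06 to 0.03 when leaving out 1 replicate, and the latter was 0.02 on CPM. HOXB7 became 0.03 and 0.09, HOXC5 0.21 (-1.35 without -/- replicate 1) and HOXC11 0.01, in each case with 1 replicate left out. The median of all genes was -0.08 and -0.11 with limma on the TPM scales, against 0.03, and calls were then 35.8% and 36.2% upward, against 50.5%.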
